A study of Homo sapiens with 24 samples.

Results

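Mismatch repair genes were described in the ovarian cancer line A2780, which is sensitive to platinum, and its resistant derivative A2780cis: the MutS homologs MSH6 and MSH3, the MutL homologs PMS2, PMS1 and MLH3, and the exonuclease EXO1. They were taken from the deposited count table by the Ensembl identifiers that map to these symbols, which gave 6 of the 63299 genes listed, 1 row each. All 6 passed the filter on low counts. They were chosen as genes of this pathway, though with earlier results of these data known. In untreated cells, MLH3 was higher and MSH6 lower in A2780cis than in A2780. After exposure to 5-FdU-ECyd, MSH6 fell in both lines at both times, MSH3, PMS2 and PMS1 fell in both lines at 12 h, and EXO1 rose in A2780 at both times but fell in A2780cis at 12 h.

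Mismatch repair removes bases that the replication fork has paired wrongly, together with small loops left by slippage. MutS proteins act as heterodimers that recognise the lesion, those with MSH6 mainly at single mispairs and those with MSH3 mainly at loops. MutL heterodimers are then recruited, of which the one with PMS2 nicks the new strand, whereas MLH3 also serves meiotic crossovers and the role of PMS1 in repair is less clear. EXO1 digests the nicked strand from its 5′ end before a polymerase refills the gap. The pathway also meets platinum adducts and fluorinated or uracil-containing DNA, and tumour cells that lack it tolerate such lesions.

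Stranded total RNA libraries were made from A2780 cells and from A2780cis, their isogenic derivative, which was kept resistant by 1 μM cisplatin in the medium during recurrent passages. Both lines were left untreated or exposed to 1 μM 5-FdU-ECyd, a duplex prodrug that links the thymidylate synthase inhibitor 5-FdU to the RNA polymerase inhibitor ECyd, and were harvested after 6 h or 12 h. Each of the 8 groups held 3 libraries. The study calls them biological replicates, and how their cultures were kept apart is not given in the sources used here. Each line is a single established culture, and every A2780cis library, untreated ones included, shares the cisplatin history.

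The deposited counts of a library summed to between 11077368 and 21901406, and the count of a member ran from 190 to 5930. Values are given as CPM, which scale each count to the TMM-normalized size of its library, and changes as log2 fold change (log2 FC) ± standard error of edgeR's quasi-likelihood test, and a gene passed where its p-value, adjusted over the 20240 genes tested, did not exceed 0.05. In bulk RNA, fewer cells of a kind and less RNA per cell cannot be told apart. CPM are relative to the other genes of a library, so a change in total RNA per cell is not seen in them. A rise or fall is meant in this relative sense throughout. Of 8 markers of ovarian epithelium, 5 (CDH1, KRT7, MUC16, PAX8 and WT1) stayed below 0.3 CPM in every library of both lines. The list summed to between 2.56 and 5.94 CPM in the A2780 groups and between 28.2 and 31.8 CPM in the A2780cis groups. In untreated A2780cis the keratins KRT8 and KRT18 were higher (log2 FC 2.40 ± 0.20 and 4.14 ± 0.13) and EPCAM was lower (−1.66 ± 0.35), all past the threshold. In this comparison 61.3% of all genes tested passed in either direction. Fibroblast markers, 4 in number, summed to between 55.1 and 79.1 CPM in the A2780 groups and between 1.70 and 3.90 CPM in the A2780cis groups. All 4 were lower in untreated A2780cis, where 30.2% of all genes tested were lower. Of 4 leukocyte markers, 3 lay below 0.3 CPM in every library, CD3E and PTPRC among them, and CD68 was higher in untreated A2780cis (log2 FC 1.24 ± 0.13). That list summed to between 2.86 and 3.07 CPM in the A2780 groups and between 6.36 and 7.46 CPM in the A2780cis groups. The 3 endothelial markers (CDH5, PECAM1 and VWF) lay below 0.3 CPM in every library. The part of these markers in the differences between the lines was not tested.

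The windows from 250 bases before to 50 after the start site (RefSeq, GRCh38.p14) are shown for EXO1, MSH6 and PMS2. These are 3 of the 4 members whose first window holds the 8-letter core bound by E2F factors, which drive genes of DNA replication. They include EXO1, whose response differed most between the lines. Levels of MSH6 and PMS2 were alike over the libraries (Pearson's r 0.91), but those of MSH3 and PMS2 were more so (0.94). The core was searched on both strands as TTTCCCGC, TTTCGCGC, TTTGCCGC and TTTGGCGC, and matches are in capitals. The start site is base 251.
EXO1, chr1:241847954-241848253, + strand: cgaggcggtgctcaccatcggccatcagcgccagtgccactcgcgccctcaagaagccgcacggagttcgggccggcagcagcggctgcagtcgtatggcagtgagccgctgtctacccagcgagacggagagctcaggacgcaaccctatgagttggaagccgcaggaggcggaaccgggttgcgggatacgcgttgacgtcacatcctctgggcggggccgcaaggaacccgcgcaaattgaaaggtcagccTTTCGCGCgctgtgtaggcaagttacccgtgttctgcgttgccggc
MSH6, chr2:47782895-47783194, + strand: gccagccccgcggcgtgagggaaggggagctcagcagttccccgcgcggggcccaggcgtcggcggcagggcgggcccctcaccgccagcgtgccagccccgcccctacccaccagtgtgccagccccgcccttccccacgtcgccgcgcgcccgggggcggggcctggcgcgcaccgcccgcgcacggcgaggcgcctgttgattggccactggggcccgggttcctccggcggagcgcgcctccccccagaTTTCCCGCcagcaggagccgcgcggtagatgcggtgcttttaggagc
PMS2, chr7:6009057-6009356, − strand: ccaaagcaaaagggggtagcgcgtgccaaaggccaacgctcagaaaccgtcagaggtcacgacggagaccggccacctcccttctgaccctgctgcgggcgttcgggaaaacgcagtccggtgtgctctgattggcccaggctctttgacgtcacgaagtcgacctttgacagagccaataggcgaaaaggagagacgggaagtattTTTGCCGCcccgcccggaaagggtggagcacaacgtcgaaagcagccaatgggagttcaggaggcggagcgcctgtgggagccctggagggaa
In EXO1 and MSH6 the match began just after the start site, at bases 255 and 254 of the window, and in PMS2 before it, at base 208. The first window of MSH3, whose sequence is not printed here, held 2 overlapping matches before the start site, at bases 144 and 148. The first windows of MLH3 and PMS1 held no match, and of all 35116 RefSeq windows, 3.3% held at least 1. Other start sites of MSH6 and EXO1 are listed whose windows held no match. A match is a run of letters and no measure of binding.

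Untreated cells were compared first, to ask how the resistant line differs from the sensitive line before the drug. Relative to A2780, A2780cis held more MLH3, less MSH6 and slightly more EXO1, while MSH3, PMS1 and PMS2 did not pass the threshold. Over both times the log2 FC was 0.92 ± 0.07 for MLH3 (adjusted p = 1.52e-11), −0.71 ± 0.06 for MSH6 (adjusted p = 2.16e-10) and 0.21 ± 0.06 for EXO1 (adjusted p = 0.00235). Of all genes tested, 31.1% were higher and 30.2% lower in A2780cis, so that 2 members higher and 1 lower is a share near that of all genes.

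**Figure D1:**
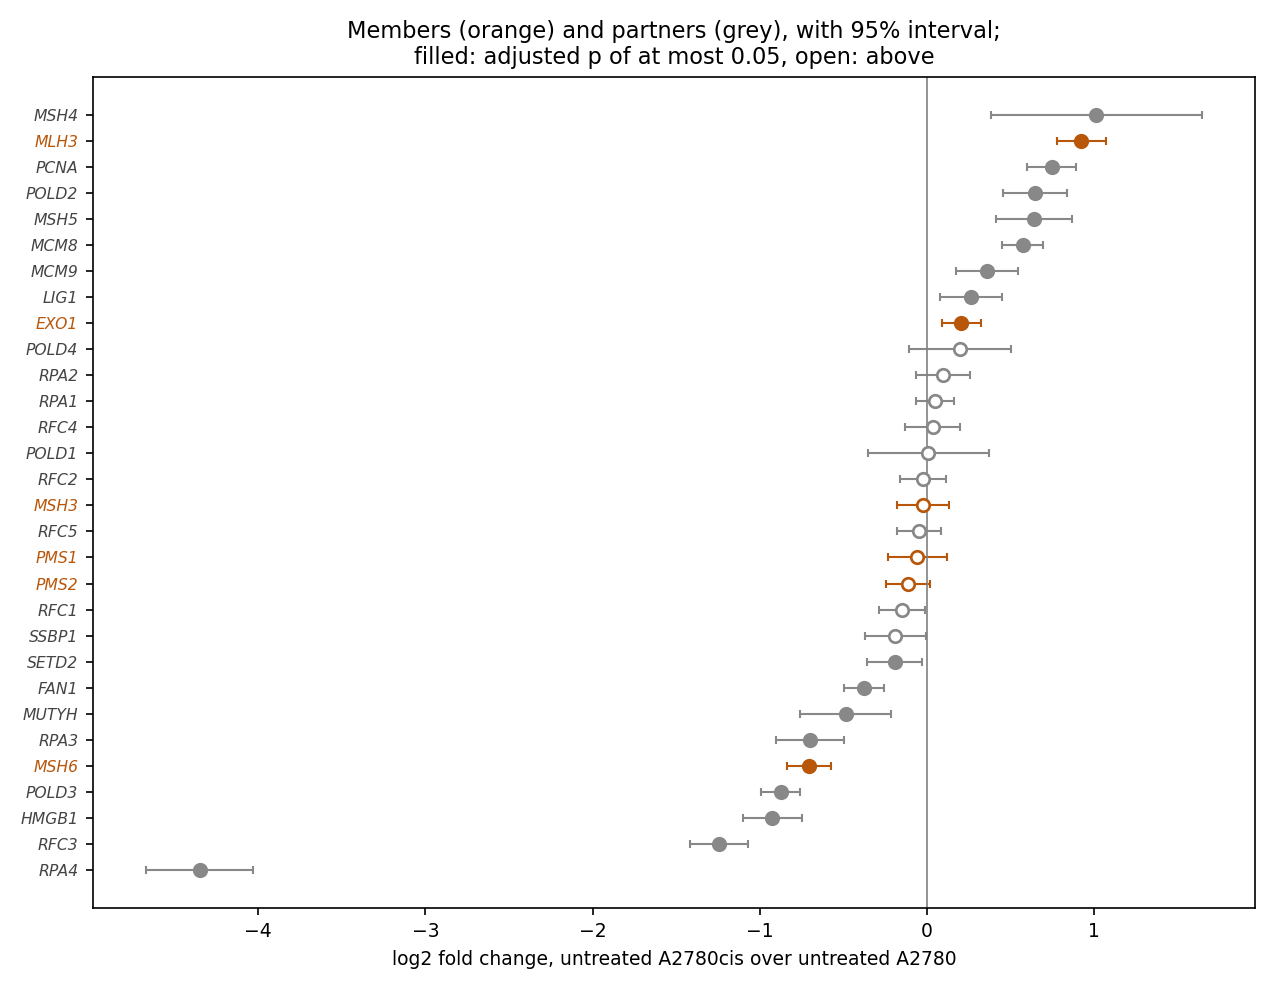
Log2 fold change of untreated A2780cis over untreated A2780, as the mean of both times, for the 6 members (orange) and 24 partners of the pathway (grey), with 95% intervals and filled points where the adjusted p was at most 0.05. MLH3 at 0.92 lies near the upper end, MSH6 at −0.71 among the lower genes, and MSH3, PMS1 and PMS2 have intervals that include 0.

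MLH3 is the MutL homolog best known from meiosis. At 6 h untreated A2780 read 23.6, 21.3 and 20.6 CPM, and untreated A2780cis 47.3, 42.0 and 42.0 CPM. At 12 h it read 20.9, 19.6 and 17.0 CPM in A2780 and 36.5, 33.4 and 33.4 CPM in A2780cis. The lines did not overlap at either time, and the level in A2780cis was 2.00 times that of A2780 at 6 h and 1.79 times at 12 h (log2 FC 1.00 ± 0.10 and 0.85 ± 0.10).

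MSH6, the recognition subunit for single mispairs, went the other way. It read 345, 359 and 314 CPM at 6 h and 329.6, 320.4 and 305 CPM at 12 h in untreated A2780. In untreated A2780cis it read 212, 243 and 229 CPM at 6 h and 186, 176 and 173 CPM at 12 h. Every A2780cis library lay below every A2780 library, with a log2 FC of −0.57 ± 0.09 at 6 h (adjusted p = 5.73e-06) and −0.84 ± 0.09 at 12 h (adjusted p = 9.50e-09).

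EXO1, the exonuclease that extends the nick, differed least of these 3 genes. Its level was 92.1 ± 0.722 CPM in A2780 and 103 ± 1.34 CPM in A2780cis at 6 h, and 76.2 ± 5.72 and 90.5 ± 5.26 CPM at 12 h (SD, n = 3). The groups did not overlap, but the log2 FC of 0.16 ± 0.08 at 6 h missed the threshold (adjusted p = 0.0953), whereas that of 0.25 ± 0.08 at 12 h passed it (adjusted p = 0.00911). The call at 12 h was lost without replicate 3 of A2780 (log2 FC 0.19, adjusted p = 0.0699), without replicate 1 of A2780cis (0.20, adjusted p = 0.0536) and without the filter on low counts (adjusted p = 0.0712). Of all genes tested, 47.9% passed in either direction at 6 h and 52.9% at 12 h.

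For the other members the 95% intervals bound the difference between the untreated lines. The log2 FC lay between −0.18 and 0.13 for MSH3, between −0.24 and 0.12 for PMS1 and between −0.24 and 0.02 for PMS2. PMS2 passed when libraries were scaled by their size alone (log2 FC −0.16, adjusted p = 0.0159).

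**Figure D2:**
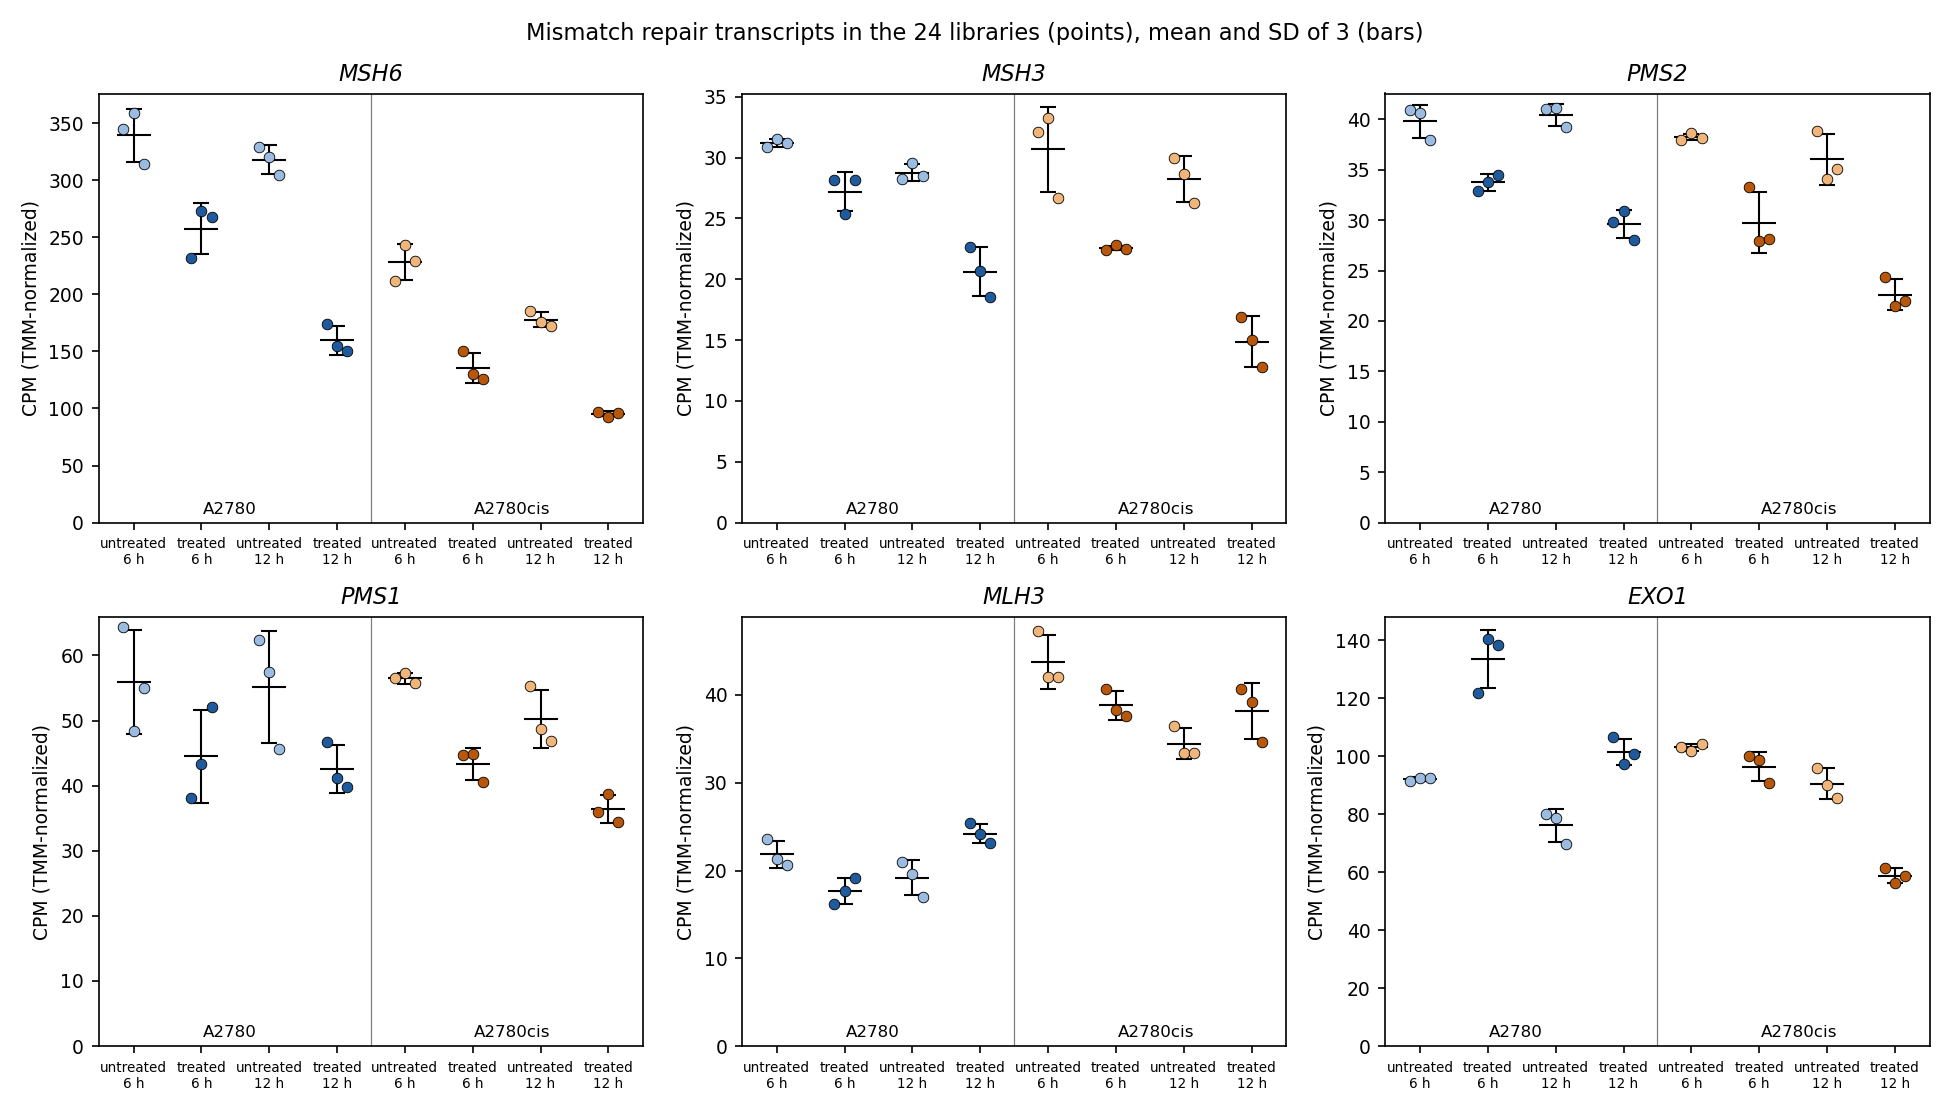
TMM-normalized CPM of each member (y axis, from 0) in the 24 libraries, as points, with the mean and SD of the 3 libraries of each group. MLH3 separates by cell line, with A2780cis higher throughout, whereas MSH6, MSH3 and PMS2 have their lowest group in A2780cis treated for 12 h, at 95.3, 14.9 and 22.6 CPM, and EXO1 its highest in A2780 treated for 6 h, at 134 CPM.

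The treatment response was read within each line and time. In A2780, 4 members fell and 1 rose at 6 h, and 4 fell and 2 rose at 12 h. In A2780cis, 4 fell and none rose at 6 h, and 5 fell and none rose at 12 h. Among all genes tested in A2780, 16% rose and 13.4% fell at 6 h, and 28.6% rose and 26.1% fell at 12 h. In A2780cis 14.4% rose and 16.3% fell at 6 h, and 31% rose and 28.9% fell at 12 h. The median log2 FC of the 6 members was −0.27 and −0.41 in A2780 and −0.37 and −0.65 in A2780cis, at 6 h and 12 h, against medians of all genes between 0.000321 and 0.0373.

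**Figure D3:**
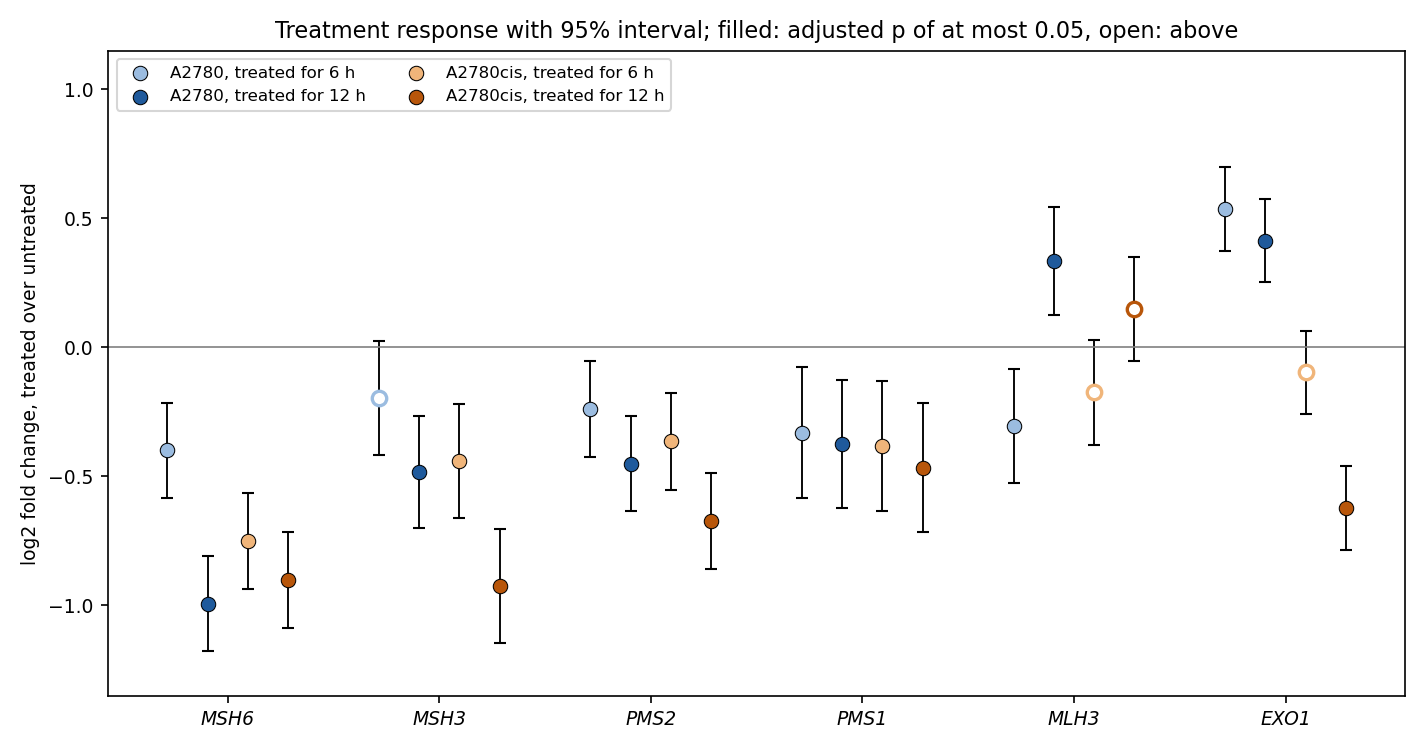
Log2 fold change of treated over untreated cells (y axis) for each member, line and time, with 95% intervals and open points where the adjusted p was above 0.05. MSH6 lies below 0 throughout, down to −0.99 in A2780 at 12 h, MSH3, PMS2 and PMS1 lie below 0, and EXO1 lies at 0.54 and 0.41 in A2780 but at −0.10 and −0.62 in A2780cis.

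MSH6 had the largest decrease of the 6 members in 3 of the 4 comparisons. In A2780 treated for 6 h it read 232, 273 and 268 CPM, below all 3 untreated libraries of that time (log2 FC −0.40 ± 0.09, adjusted p = 0.00142). After 12 h the treated libraries read 174, 155 and 150.1 CPM, or 0.502 times the untreated level (log2 FC −0.99 ± 0.09, adjusted p = 8.87e-10). The fall in A2780 was larger at 12 h than at 6 h by −0.60 ± 0.13 in log2 FC (adjusted p = 0.00134).

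In A2780cis, MSH6 read 151, 130.4 and 126 CPM after 6 h of treatment (log2 FC −0.75 ± 0.09, adjusted p = 6.54e-07) and 97.2, 92.8 and 95.9 CPM after 12 h (−0.90 ± 0.09, adjusted p = 4.14e-09). Here the step from 6 h to 12 h was −0.15 ± 0.13 and did not pass (adjusted p = 0.424). The response did not differ between the lines past the threshold, with a log2 difference of A2780cis over A2780 of −0.35 ± 0.13 at 6 h (adjusted p = 0.139, interval −0.61 to −0.09) and 0.09 ± 0.13 at 12 h (adjusted p = 0.644, interval −0.17 to 0.35). Untreated A2780cis started lower, so that treated A2780 at 12 h (159.8 ± 12.8 CPM) came close to untreated A2780cis at the same time (178 ± 6.73 CPM), and these 2 groups overlapped.

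MSH3, the subunit for larger loops, passed at 12 h but not at 6 h in A2780. There it read 28.1, 25.4 and 28.1 CPM after 6 h of treatment against 30.9, 31.5 and 31.2 CPM untreated, which did not pass although the groups did not overlap (log2 FC −0.20 ± 0.11, adjusted p = 0.177). After 12 h it read 22.6, 20.7 and 18.6 CPM against 28.3, 29.5 and 28.5 CPM (log2 FC −0.48 ± 0.11, adjusted p = 0.000392). In A2780cis the 6 h values were 22.4, 22.8 and 22.5 CPM treated and 32.1, 33.3 and 26.7 CPM untreated (−0.44 ± 0.11, adjusted p = 0.00282).

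After 12 h in A2780cis, MSH3 read 16.9, 14.99 and 12.8 CPM in treated and 30.0, 28.6 and 26.2 CPM in untreated cells, a decrease to 0.526 times the untreated level (log2 FC −0.93 ± 0.11, adjusted p = 5.48e-08). The response at 12 h was stronger in A2780cis than in A2780 by −0.44 ± 0.15 in log2 FC (adjusted p = 0.0338). That difference was lost without the filter on low counts (adjusted p = 0.0920), in a fit of the compared samples alone (0.103) and without any 1 of 8 of the 12 libraries compared (0.0511 to 0.112), namely all 3 untreated and treated replicates 1 and 2 of A2780, and untreated replicates 1 and 2 and treated replicate 3 of A2780cis. The further fall from 6 h to 12 h in A2780cis was −0.49 ± 0.15 (adjusted p = 0.0216), and without untreated 6 h replicate 3 it no longer passed (−0.40, adjusted p = 0.0738).

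PMS2, the subunit that nicks the strand, fell in all 4 comparisons, with log2 FC of −0.24 and −0.45 in A2780 and −0.36 and −0.67 in A2780cis at 6 h and 12 h. Its 12 h values were 29.8, 30.9 and 28.1 CPM in treated against 41.1, 41.1 and 39.2 CPM in untreated A2780 (adjusted p = 0.000131). In A2780cis they were 24.4, 21.5 and 21.9 CPM treated and 38.9, 34.1 and 35.1 CPM untreated (adjusted p = 5.72e-07). Treated and untreated libraries did not overlap in any of the 4 comparisons. The call in A2780cis at 6 h (adjusted p = 0.00356) was lost without the filter on low counts (log2 FC −0.34, adjusted p = 0.0528). The difference between the lines was −0.13 ± 0.13 at 6 h and −0.22 ± 0.13 at 12 h and did not pass (adjusted p = 0.728 and 0.216), though the latter passed when libraries were scaled by size alone (−0.34, adjusted p = 0.0304).

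PMS1, a MutL homolog of unclear repair activity, fell in all 4 comparisons, with log2 FC of −0.33 and −0.37 in A2780 and −0.38 and −0.47 in A2780cis. Its untreated A2780 libraries were the most scattered of any member, with 64.4, 48.4 and 54.9 CPM at 6 h and 62.4, 57.4 and 45.7 CPM at 12 h, and they overlapped with the treated ones (38.0 to 52.1 and 39.8 to 46.7 CPM). In A2780cis the groups were apart at both times, with 55.7 to 57.4 CPM untreated and 40.6 to 44.8 CPM treated at 6 h, and 46.9 to 55.2 and 34.5 to 38.7 CPM at 12 h. The call in A2780 at 12 h (adjusted p = 0.0110) was lost without untreated replicate 1 (log2 FC −0.30, adjusted p = 0.0605) and with library size scaling (−0.15, adjusted p = 0.305). That in A2780cis at 6 h (adjusted p = 0.0195) was lost without untreated replicate 2 (0.0534), without treated replicate 3 (0.0878) and with library size scaling (0.0869).

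The calls of MLH3, PMS1 and PMS2 in A2780 at 6 h were near the threshold, with adjusted p-values of 0.0330, 0.0450 and 0.0499. That of PMS2 was lost with counts not rounded (0.0502). With library size scaling, without the filter on low counts or in a fit of the compared samples alone, 2 members passed, MSH6 and EXO1. Leaving out untreated replicate 1 or treated replicate 1 or 2 also left these 2, with adjusted p-values of 0.158, 0.241 and 0.145 for MLH3, PMS1 and PMS2 without treated replicate 1. Without untreated replicate 2, PMS1 passed beside them and MLH3 (0.0537) and PMS2 (0.120) did not. Without untreated replicate 3 PMS1 (0.0646) and without treated replicate 3 PMS2 (0.0714) did not pass.

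MLH3 reversed with time in A2780. After 6 h of treatment it read 16.2, 17.7 and 19.2 CPM, below the untreated libraries (log2 FC −0.31 ± 0.11), and after 12 h it read 25.4, 24.1 and 23.1 CPM, above them (0.34 ± 0.10, adjusted p = 0.00696). The 2 responses differed by 0.64 ± 0.15 (adjusted p = 0.00274). The rise at 12 h was lost without untreated replicate 3 (0.25, adjusted p = 0.0661) and without the filter on low counts (0.31, adjusted p = 0.0583).

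In A2780cis, MLH3 passed at neither time: the log2 FC was −0.17 ± 0.10 at 6 h (adjusted p = 0.194) and 0.15 ± 0.10 at 12 h (adjusted p = 0.197, or 0.0242 with library size scaling). Treated A2780cis held 38.2 ± 3.19 CPM at 12 h (SD, n = 3), above all A2780 groups, of which the highest was 24.2 ± 1.12 CPM. The responses of the lines differed by 0.13 ± 0.15 at 6 h and −0.19 ± 0.14 at 12 h, neither past the threshold (adjusted p = 0.759 and 0.366).

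EXO1 differed most in its response between the lines. In A2780 it read 91.3, 92.6 and 92.5 CPM untreated and 122, 140.5 and 138 CPM after 6 h of treatment, a rise of 1.45 times (log2 FC 0.54 ± 0.08, adjusted p = 1.38e-05). At 12 h the untreated libraries read 80.2, 78.8 and 69.7 CPM and the treated ones 106, 97.4 and 101 CPM, all of them higher (0.41 ± 0.08, adjusted p = 7.50e-05).

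In A2780cis, EXO1 read 103, 102 and 104 CPM untreated and 100.0, 98.7 and 90.7 CPM after 6 h of treatment (log2 FC −0.10 ± 0.08, adjusted p = 0.380). After 12 h it read 61.5, 56.4 and 58.6 CPM against 96.1, 89.9 and 85.6 CPM, 0.650 times the untreated level (−0.62 ± 0.08, adjusted p = 2.19e-07). The response moved from 6 h to 12 h by −0.53 ± 0.11 in A2780cis (adjusted p = 0.00138) and by −0.12 ± 0.11 in A2780 (adjusted p = 0.461), and the difference between these steps was not tested.

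The line difference of the EXO1 response was −0.63 ± 0.11 at 6 h (adjusted p = 0.00159) and −1.04 ± 0.11 at 12 h (adjusted p = 3.37e-07). It was the only member to pass at 6 h, where 0.692% of all genes tested responded higher and 2.38% lower in A2780cis. At 12 h EXO1 and MSH3 passed, both lower, where 9.7% were higher and 14% lower. Both EXO1 differences passed without each of the 12 libraries in turn and under every other setting tried.

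Untreated cells also changed between the times, which share the controls of the comparisons above. In A2780, EXO1 fell from 6 h to 12 h by 0.27 on the log2 scale (adjusted p = 0.0136), a call lost without 6 h replicate 1 (0.0519), without 12 h replicate 3 (0.100) and without the filter (0.165), and 26.9% of all genes passed. In A2780cis, MLH3 and MSH6 fell by 0.35 and 0.36 (adjusted p = 0.00755 and 0.00288), and 39.9% of all genes passed. The call of MLH3 was lost with library size scaling (0.177), without the filter (0.108) and in a fit of the 2 groups alone (0.0707). The step of the treatment response from 6 h to 12 h passed for 23.7% of all genes in A2780 and 24% in A2780cis.

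Ordered by level, the 8 groups spread least in PMS1, 1.55 times from the highest to the lowest, followed by PMS2 (1.79), MSH3 (2.10), EXO1 (2.27), MLH3 (2.48) and MSH6 (3.56). The lowest group was A2780cis treated for 12 h for every member but MLH3, whose lowest was A2780 treated for 6 h. For PMS1 and PMS2 only this lowest group stood apart from its neighbour in the order, and the other 6 of 7 neighbouring pairs overlapped. MSH3 had 5 overlapping pairs, as the 4 untreated groups and A2780 treated for 6 h formed a continuous range from 31.2 to 27.2 CPM. For MLH3 the gap between the lines, from 34.4 to 24.2 CPM, and that between the 2 highest groups were the breaks in the order.

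Levels of different genes are compared per length. Divided by the merged exons of the gene in GENCODE release 44, EXO1 was the highest in every group, with 22.3 ± 0.174 CPM per kb in untreated A2780 at 6 h, followed by MSH6 with 19.2 ± 1.302 and PMS1 with 10.3 ± 1.47 (SD, n = 3). The MSH6 gene model of that release spans chr2:47695530-47810063 with 17.7 kb of merged exons, whereas its canonical transcript has 4.26 kb. Divided by canonical transcripts, a choice made after seeing the data, MSH6 was the highest in every group (79.6 ± 5.41 CPM per kb in the same libraries), EXO1 the next (26.7 ± 0.209) and PMS1 after it (17.7 ± 2.54), while MLH3 was the lowest (2.79 ± 0.200) in every group but A2780cis treated for 12 h, where MSH3 was the lowest (3.35 ± 0.464) and MLH3 read 4.88 ± 0.408. The order of MSH6 and EXO1 therefore rests on the gene model, and the model used for counting may differ from that of release 44.

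Gene span was set beside the response, since protein-coding genes with long canonical transcripts were lower after treatment in these libraries. In A2780cis at 12 h the median log2 FC was 0.20 for the 6535 genes of up to 25 kb, −0.17 for the 5041 of 25 to 100 kb and −0.71 for the 2305 of over 100 kb. MSH3, which spans 222.2 kb, stood at −0.93 there, beside its class at −0.71. MSH6, whose canonical transcript spans 23.8 kb of the genome, introns included, stood at −0.90 beside a class at 0.20. Its whole gene model spans 114.5 kb, which would set it beside the class at −0.71. The class of MSH6 therefore rests on the model chosen. PMS2 (38.1 kb), PMS1 (93.2 kb) and EXO1 (41.7 kb) stood at −0.67, −0.47 and −0.62 beside −0.17, and MLH3 (37.7 kb) at 0.15. In A2780 at 12 h the medians were 0.09, −0.05 and −0.40, beside −0.99 for MSH6 and −0.48 for MSH3. The part of gene span in these responses was not tested.

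Some members lie beside or over a gene on the opposite strand, and the strand setting of the counting was not given in the sources used here, so that reads of shared exons cannot be told apart. PMS1 starts 279 bp from ORMDL1, a regulator of sphingolipid synthesis, with 96 bp of shared exon. ORMDL1 rose at 12 h in A2780 (0.53 ± 0.10, adjusted p = 8.57e-05) and in A2780cis (0.25 ± 0.10, adjusted p = 0.0350), opposite to PMS1. PMS2 starts 125 bp from AIMP2, a scaffold of the aminoacyl-tRNA synthetase complex, without overlap. AIMP2 fell with it, by 0.93 at 12 h in A2780 and 0.55 in A2780cis on the log2 scale.

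MSH6 overlaps FBXO11, a ubiquitin ligase subunit on the other strand, by 4022 bp of merged exon (22.7% of those of MSH6). In untreated cells the pair went opposite ways, since FBXO11 was higher in A2780cis (log2 FC 0.61 ± 0.07). On treatment FBXO11 fell as MSH6 did, with log2 FC of −0.50 and −0.55 in A2780 and −0.86 and −1.08 in A2780cis. At 12 h its response was stronger in A2780cis by −0.54 ± 0.15 (adjusted p = 0.00919), a difference that MSH6 did not show past the threshold.

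**Figure D4:**
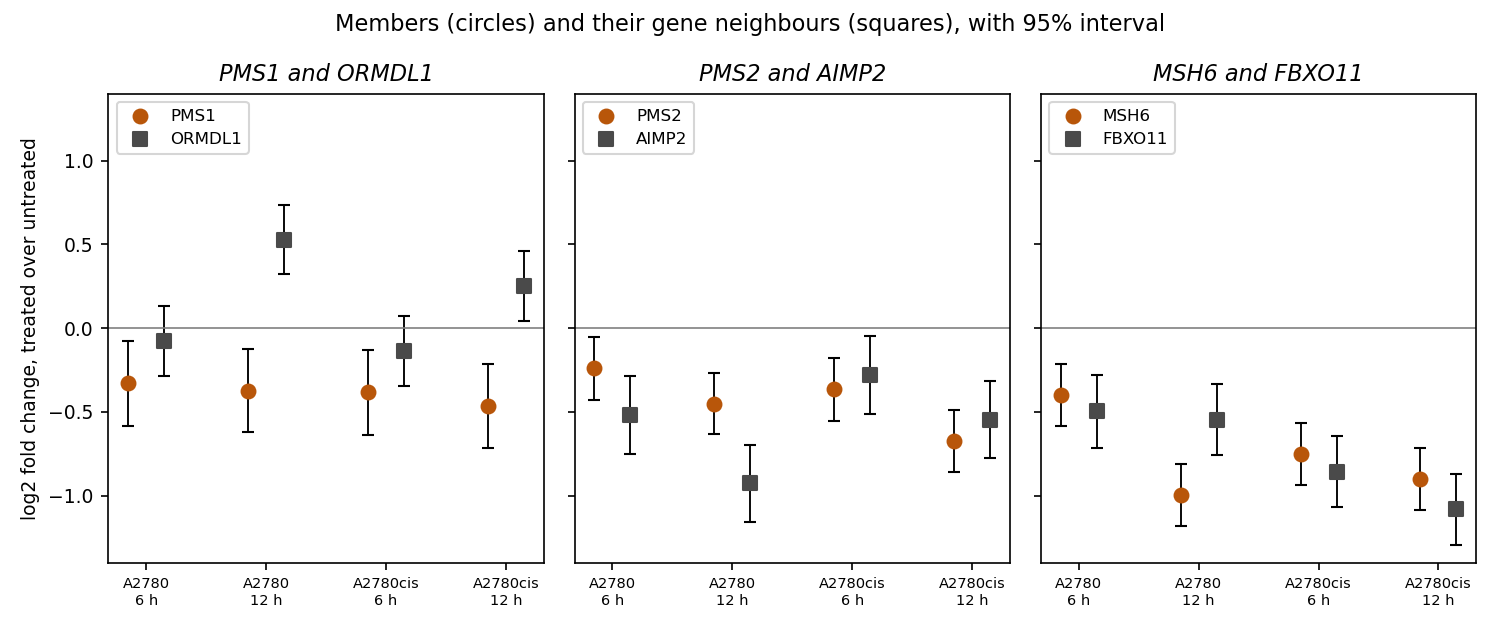
Log2 fold change of treated over untreated cells (y axis) in each line and time for 3 members (circles) and the gene that starts beside or overlaps them (squares), with 95% intervals. ORMDL1 lies above 0 at 12 h (0.53 and 0.25) while PMS1 lies below it, and AIMP2 and FBXO11 lie below 0 with PMS2 and MSH6.

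PMS2 has many near-identical copies, and its counts were fractional in 23 of 24 libraries against at most 3 libraries for any other member, so that its level is uncertain to that extent. The copies with most reads, PMS2CL and PMS2P1, held group means of 14.1 to 16.4 and 11.1 to 14.8 CPM, beside 22.6 to 40.5 CPM for PMS2. Of 14 copies tested, 0 passed in either line at 6 h or in A2780 at 12 h, in edgeR as in DESeq2, and 3 had an unadjusted p below 0.05, all in A2780 at 12 h. In A2780cis at 12 h, 5 of the 14 rose, from 0.54 (PMS2P8) to 1.04 (PMS2P9) in log2 FC, a share near the 31% of all genes that rose. There PMS2 fell and PMS2CL stood at −0.12 ± 0.09 (adjusted p = 0.297).

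The partners of the pathway were described through a list of 24 genes, among them the sliding clamp PCNA, its loader RFC, the single-strand binding protein RPA, DNA polymerase delta and DNA ligase 1. In untreated cells 7 were higher and 8 lower in A2780cis, with a median log2 FC of −0.01 against 0.002 for all genes. Among all genes tested, 31.1% were higher and 30.2% lower. PCNA was higher by 0.75 ± 0.07 and POLD2, a subunit of polymerase delta, by 0.65 ± 0.09. MSH4, a meiotic MutS homolog, was higher by 1.01 ± 0.31, but from only 1 to 10 reads in an untreated A2780 library. The loader subunit RFC3 was lower by −1.25 ± 0.08 and the DNA-bending protein HMGB1 by −0.93 ± 0.09. RPA4, a relative of RPA2, was lower by −4.35 ± 0.16, with 3 to 10 reads in an untreated A2780cis library against 107 to 161 in A2780.

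On treatment, partners split between rising and falling genes. In A2780, 9 rose and 2 fell at 6 h and 10 rose and 5 fell at 12 h, with medians of 0.13 at both times. In A2780cis, 8 rose and 3 fell at 6 h and 9 rose and 7 fell at 12 h, with medians of 0.01 and −0.01. The shares of all genes that rose and fell at 6 h were 16% and 13.4% in A2780 and 14.4% and 16.3% in A2780cis. At 12 h they were 28.6% and 26.1% in A2780 and 31% and 28.9% in A2780cis. PCNA rose from 198 ± 13.7 to 502 ± 52.7 CPM in A2780 at 12 h and from 345 ± 23.8 to 623 ± 54.3 CPM in A2780cis (SD, n = 3; log2 FC 1.34 ± 0.10 and 0.85 ± 0.10). POLD4, the smallest subunit of polymerase delta, rose by 1.12 ± 0.19 and 1.88 ± 0.18 at 12 h. MSH4 rose by 2.52 ± 0.34 and 2.64 ± 0.28, to 4.40 ± 0.871 CPM at most.

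At 6 h the largest rises in A2780 were those of MSH4 (1.66 ± 0.42), PCNA (1.01 ± 0.10) and LIG1, the ligase that seals the repaired strand (0.77 ± 0.13). In A2780cis they were those of MSH4 (1.34 ± 0.31), the polymerase subunit POLD1 (0.86 ± 0.26) and the adenine glycosylase MUTYH (0.79 ± 0.19). POLD1 also differed between the times in untreated A2780cis, at 14.1 CPM at 6 h and 49.3 CPM at 12 h. Treated A2780cis held 25.5 CPM of it at 6 h and 45.3 CPM at 12 h. SETD2, the histone methyltransferase whose mark MSH6 binds, had the largest fall of the list in all 4 comparisons, with log2 FC of −0.46 and −0.69 in A2780 and −0.78 and −1.29 in A2780cis. RFC3 fell in A2780 by 0.41 and 0.54 and in A2780cis at 12 h by 0.72, HMGB1 fell in A2780 at 12 h by 0.59, the helicase MCM9 in A2780cis at 6 h by 0.41, and RFC1 in A2780cis by 0.40 and 1.00 on the log2 scale.

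The responses of partners did not differ between the lines past the threshold at 6 h, with 0 of 24 in edgeR, 5 at an unadjusted p below 0.05 and 0 by DESeq2. At 12 h, 7 of 24 did, with 2 higher in A2780cis, POLD4 (0.76 ± 0.26, adjusted p = 0.0348) and the small RPA subunit RPA3 (0.65 ± 0.20, adjusted p = 0.0173). Of the 5 lower ones, RFC1 differed most (−0.74 ± 0.13, adjusted p = 0.000327), followed by SETD2 (−0.60 ± 0.16, adjusted p = 0.00953) and LIG1 (−0.52 ± 0.17, adjusted p = 0.0320). Among all genes tested, 0.692% responded higher and 2.38% lower in A2780cis at 6 h, and 9.7% and 14% at 12 h.

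Genes of replication, a list of 25, were counted for comparison. In A2780, 12 rose and 4 fell at 6 h and 10 rose and 12 fell at 12 h, with median log2 FC of 0.24 and −0.02. In A2780cis, 4 rose and 7 fell at 6 h and 5 rose and 13 fell at 12 h, with medians of −0.004 and −0.41. The shares of all genes that rose and fell are those given above beside the partners. GINS4, of the replicative helicase, and the cyclin CCNE2 rose in A2780 at 12 h by 1.43 ± 0.08 and 1.94 ± 0.11, and the proliferation marker MKI67 fell by 1.09 there and by 2.45 in A2780cis on the log2 scale.

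Likeness between members was measured as Pearson's r of log2 CPM over the 24 libraries, which share lines, treatments and times, and is given as a description. PMS2 and MSH3 were most alike (0.94), followed by PMS2 with MSH6 (0.91), and MLH3 with MSH6 was most opposed (−0.63). EXO1 reached at most 0.53, with MSH3. Among 10755 protein-coding genes, those most like EXO1 were OSBPL11 (0.93), the ribonucleotide reductase subunit RRM2 (0.90) and the origin licensing factor CDC6 (0.88). Most like PMS2 were the mitotic kinase BUB1 (0.98), TASOR (0.98) and the importin KPNA2 (0.98), and most like MSH6 were VWA8 (0.99), NEBL (0.98) and GREB1L (0.98). MSH3 was most like AP1G1 (0.97), UBR3 (0.97) and ROCK2 (0.97), PMS1 most like the end-joining factor XRCC4 (0.94), the mitochondrial polymerase subunit POLG2 (0.92) and MIPOL1 (0.92), and MLH3 most like ADORA2B (0.98), TRAPPC6B (0.98) and TMEM67 (0.97).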

How the data were processed

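The values for 24 total RNA libraries of A2780 and A2780cis came from 1 count table of 63299 genes. Per the study's methods and notes, trimmed reads were mapped with STAR 2.5.2b to GRCh38.p7 and assigned to exons with featureCounts. The authors deposited expected counts, neither normalized nor whole. Reads with several alignments were shared out in fractions and reads across several genes were kept, which bears on PMS2 and on overlapping genes. The labels describe single reads and the methods paired-end reads, and the strand setting is not given in the sources used here.

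Counts were rounded, filtered with filterByExpr (minimum count 10, minimum total 15), normalized with TMM and fitted in R 4.3.3 with edgeR 4.0.16 (quasi-likelihood, 1 coefficient per group over all 24 libraries, 16 residual degrees of freedom, two-sided, Benjamini-Hochberg adjustment over 20240 genes, threshold 0.05). Standard errors were taken as the size of the log2 FC over the root of its F statistic. On simulated data of the A2780 12 h comparison (19178 genes), 65 of 100 genes changed by 0.6 and 89 of 100 changed by 1 on the log2 scale were called, and 5 of 18978 unchanged genes. No other genes were changed in the simulation, whereas 54.8% of genes passed in the real comparison. These rates therefore need not hold for the real tests. No libraries of a group were identical.

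Coordinates and lengths came from GENCODE release 44 by Ensembl identifier (56948 matched). The reads had been counted with the Gencode annotation of GRCh38.p7, whose gene models may differ. The members and lists were chosen with earlier results of these data known. Named were all members, up to 3 partners either way per comparison, up to 2 replication genes either way, the 3 genes most like each member, and genes that overlap a member or start within 1 kb. Items withheld from this text are not reported here. Alternatives were size factors as in DESeq2, library size alone, no filter, counts not rounded, the Wald test of DESeq2 1.42.0, the replicate number as a block, the compared samples alone and each library left out. Figures were drawn with Python, pandas and matplotlib.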

Additional observations from a re-analysis of the deposited data

Results flagged for a closer look

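Responses that differed between the lines, or between the times within a line, were flagged by the test of the difference itself in edgeR. Of the members, EXO1 responded lower in A2780cis by −0.63 on the log2 scale at 6 h and by −1.04 at 12 h, and MSH3 by −0.44 at 12 h. With each compared library left out in turn, this call of MSH3 was lost in 8 of 12 fits. Those of EXO1 held in all. From 6 h to 12 h the response in A2780 moved by 0.64 for MLH3 and by −0.60 for MSH6, and in A2780cis by −0.49 for MSH3 and by −0.53 for EXO1. Of the partners, at 12 h RFC1 (−0.74), SETD2 (−0.60) and LIG1 (−0.52) responded lower in A2780cis, and RPA3 (0.65) and POLD4 (0.76) higher. These calls of partners were not tried with libraries left out. The comparisons at 1 time share their untreated libraries with the steps between the times.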

How the results depend on the processing

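Numbers of members past the threshold moved by over 1.5 times in 4 comparisons. For A2780 at 6 h, 2 members passed with library size alone, without the filter and with the compared samples alone, against 5. For the line difference at 12 h, 1 passed without the filter and with the compared samples alone, against 2. For the step between times in untreated cells, 0 passed in A2780 without the filter, against 1, and 1 in A2780cis with library size alone, without the filter and with the compared samples alone, against 2. In each of these the cause was not tested. Under size factors as in DESeq2, counts not rounded and the DESeq2 Wald test, 26 of 26 counts of members and genes stayed within 1.5 times.

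With each compared library left out in turn, 2 to 4 members and 3805 to 5987 genes passed in A2780 at 6 h, 357 to 642 genes for the line difference at 6 h, 1 to 2 members for that at 12 h, 0 to 1 members and 1846 to 5697 genes for untreated time in A2780, 4985 to 8421 genes for it in A2780cis, and 1 to 3 members for the step of the response in A2780cis.

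Signs turned only in log2 FC that did not pass. In untreated cells at 6 h PMS1 turned to −0.0298 (size factors as in DESeq2), −0.0918 (library size), −0.0021 (no filter), −0.0802 (compared samples alone) and −0.0299 (DESeq2). Its line difference at 6 h turned to 0.0105 (compared samples alone), its step in untreated A2780 to 0.0411 (library size) and 0.0061 (no filter) and in untreated A2780cis to 0.00031 (library size), and its step of the response in A2780 to 0.118 (library size). PMS2 turned in untreated A2780 to −0.0143 (size factors as in DESeq2) and −0.0157 (DESeq2) and in untreated A2780cis to 0.0843 (library size). With library size alone MSH3 turned in untreated A2780cis to 0.0525, MSH6 in the line difference at 12 h to −0.0201 and EXO1 in the step of the response in A2780 to 0.0359. With libraries left out, the difference of MSH3 between untreated lines ran from −0.0657 to 0.0219 (6 h −0.0874 to 0.0673, 12 h −0.0680 to 0.0278) and that of PMS1 at 6 h from −0.0792 to 0.128. The line difference of PMS1 ran from −0.169 to 0.0785 at 6 h and from −0.201 to 0.0252 at 12 h, its step from −0.1297 to 0.0967 in untreated A2780 and from −0.169 to 0.0843 in the response of A2780, and the step of PMS2 in untreated A2780 from −0.0115 to 0.0449. Library size alone also moved the median log2 FC of all genes in the treatment comparisons to between 0.0981 and 0.238, so that changes under it are read against that shift.

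Whether the replicate numbers pair the samples is not known. Deviations of same-numbered treated and untreated libraries correlated at −0.655 to 0.173 in A2780 at 6 h. In A2780cis at 12 h the correlations were all positive, from 0.0894 to 0.612. With 3 libraries per group, these values cannot decide whether the samples were paired. With the replicate block, 78 of 78 log2 FC and 26 of 26 counts kept their direction and side of the threshold or stayed within 1.5 times.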
